A study of Mus musculus with 7 samples.

Results

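The genes described here build or switch on motile cilia. They were chosen by symbol, as every row of the deposited files that named an axonemal dynein (Dnah, Dnaic or Dnali), a dynein assembly factor (Dnaaf), a cilium and flagellum associated protein (Cfap), a radial spoke head protein (Rsph), a tektin (Tekt) or a sperm associated antigen (Spag), plus a fixed list of single genes that included Foxj1, Rfx2, Rfx3, Ccno, Dnajb13, Tppp3, Hydin, Ccdc39 and Ccdc40. The rule found 76 of 21121 genes. Mcidas, which the rule also names, is not analysed here. The study profiled lung epithelium of C57BL/6 mice at embryonic days 13.5, 15.5 and 18.5 and postnatal days 14 and 56, written E13.5, E15.5 and E18.5, and P14 and P56. Per the labels, the lungs were digested enzymatically and the cells were sorted as live, Epcam-positive and negative for the lineage markers CD31, CD45, CD146 and Ter119. No treatment or engineered allele was named for any group. E18.5 and P56 had 2 libraries each, and the other 3 stages had 1 library each.

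Motile cilia are beating organelles of multiciliated airway cells. Each holds an axoneme, a scaffold of microtubule doublets around a central pair. Outer and inner dynein arms slide the doublets past each other, radial spokes and the central apparatus coordinate the beat, and cytoplasmic assembly factors put the dynein arms together before they enter the cilium. The forkhead factor Foxj1 and the Rfx factors, which bind X-box motifs, switch on many of these genes, while the cyclin-like protein Ccno acts in the amplification of centrioles from which the cilia grow. In the mouse lung, multiciliated cells arise in the conducting airways before birth and are a minority of the Epcam-positive cells.

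The method counts short tags from the 3' ends of polyadenylated transcripts, so reads do not grow with gene length. Values are given in the deposited unit, a tag count divided by 1 factor per library, in which 1 read was worth 0.236 to 0.385 units. Libraries held between 2559927 and 3895740 reads. Nkx2-1 and Cdh1, defining genes of lung epithelium, had 2124 to 5225 and 439 to 758 reads per library, and Epcam had 148 to 643. The 3 mesothelial markers summed to 545 and 692 reads per 1000000 reads of the library (RPM) at E18.5 and to at most 24.2 in the other libraries, all of the E18.5 reads being Msln, with Wt1 and Upk3b at 0 reads there. The 4 mesenchymal markers summed to between 8.37 and 167 RPM, with the highest sum at E15.5. The 3 endothelial markers summed to between 0.786 and 14.8 RPM, most of it Kdr with 1 to 34 reads per library, and the 2 immune markers to at most 3.56 RPM. The 2 erythroid markers summed to 0 and 25.3 RPM in the E18.5 pair, 19.1 at P14 and 2.05 to 16.1 in the other libraries. The part of such reads in the member values was not tested. The labels do not say whether the libraries of a stage came from separate animals, so each p-value below measures only the spread between these samples, which may be technical. In bulk samples, fewer cells of a type and less RNA per cell cannot be told apart.

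The promoters of some members carry the core of the X-box, the motif bound by Rfx factors. A promoter window from RefSeq on GRCm38.p6 was matched for 64 of the 76 members. Only the 250 bases before the start site were searched. The core motif GTTGCCA was searched on both strands, where it reads TGGCAAC on the other strand. It occurred in the windows of 11 of these members (17.2%), against 706 of 17492 protein-coding genes (4.04%). The whole symmetric X-box, which can overlap the core, occurred in 1 member, Pifo (1.56%), against 0.434% of protein-coding genes. The forkhead motif TGTTTAC occurred in 5 members (7.81%), against 3.04%. A match is a description of letters in this window and not a measured binding site. The stretches below, 5′ to 3′ on the strand of the gene, are examples from the 11 members, shown because they hold genes with contrasting stage patterns: Ccno, Tekt1, Dnah7b, Cfap44, Hydin and Mlf1, and also Dnaaf2 and Cfap20, which were called lower at E18.5 than in the early stages. None of them is an outer dynein arm or radial spoke gene. Capitals mark the core motif.
Ccno, chr13:112987556-112987616, plus strand: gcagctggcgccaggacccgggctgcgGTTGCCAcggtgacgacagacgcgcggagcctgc
Tekt1, chr11:72361883-72361924, minus strand: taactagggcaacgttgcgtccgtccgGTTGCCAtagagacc
Dnah7b, chr1:46066663-46066723, plus strand: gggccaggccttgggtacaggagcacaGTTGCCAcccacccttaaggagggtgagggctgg
Cfap44, chr16:44394752-44394798, plus strand: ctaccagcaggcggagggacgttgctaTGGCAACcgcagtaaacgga
Hydin, chr8:110266936-110266976, plus strand: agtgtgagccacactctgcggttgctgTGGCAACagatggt
Mlf1, chr3:67373965-67374025, plus strand: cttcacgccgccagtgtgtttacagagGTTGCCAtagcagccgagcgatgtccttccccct
Dnaaf2, chr12:69198430-69198466, minus strand: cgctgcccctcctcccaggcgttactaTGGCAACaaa
Cfap20, chr8:95434931-95434991, minus strand: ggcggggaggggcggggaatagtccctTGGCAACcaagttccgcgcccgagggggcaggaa
The motif did not single out the members with few or no reads at E13.5. It was present in 10.5% of the matched members with 0 to 3 reads at E13.5 and in 26.9% of the matched members with more reads there, and no test was made of that difference. The distance from the first base of the printed motif to the start site was 10 bases in Dnaaf2, 14 in Hydin, 15 in Tekt1 and 20 in Cfap44. It was 95 in Cfap20, 105 in Mlf1, 163 in Dnah7b and 219 in Ccno. The Cfap44 window held another core motif, not printed, at 130 bases.

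Most members were near or at 0 reads at E13.5, were read at E15.5 and E18.5, were low again at P14 and were back near the E18.5 level at P56. At E13.5, 36 of the 76 members had 0 reads, which allows up to 3 reads or 0.709 units each, and 27 of these 36 had reads at E15.5. The 72 members with at most 1000 reads in all summed to 144 RPM at E13.5 (95% exact binomial interval 133 to 157) and to 543 at E15.5 (515 to 573). At E18.5 the sums were 642 (612 to 674) and 673 (643 to 704). The P14 library summed to 235 (220 to 251), and the P56 libraries to 725 (698 to 754) and 619 (592 to 647). The P14 sum was therefore below all 4 libraries of E18.5 and P56, and E13.5 was the lowest of the 7. These intervals cover counting error only. The 4 members with more reads, Tppp3, Cfap20, Spag9 and Spag7, hold most of the reads of the 76 and are described apart, because the sum over all 76 members follows them and not the rest: it was 1559 RPM at E13.5, 2354 and 2310 in the E18.5 pair, 4429 at P14 and 3781 and 3991 at P56. The cut at 1000 reads was not planned. A planned set left out only Tppp3, Spag4, Spag5, Spag7, Spag8 and Spag9, and so kept Cfap20. Its sums were 793 RPM at E13.5, 1117 at E15.5, and 937 and 1014 in the E18.5 pair. They were 1294 at P14, and 1379 and 1385 at P56. In that set P14 was above both E18.5 libraries, so the low P14 sum depends on the cut.

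**Figure D1:**
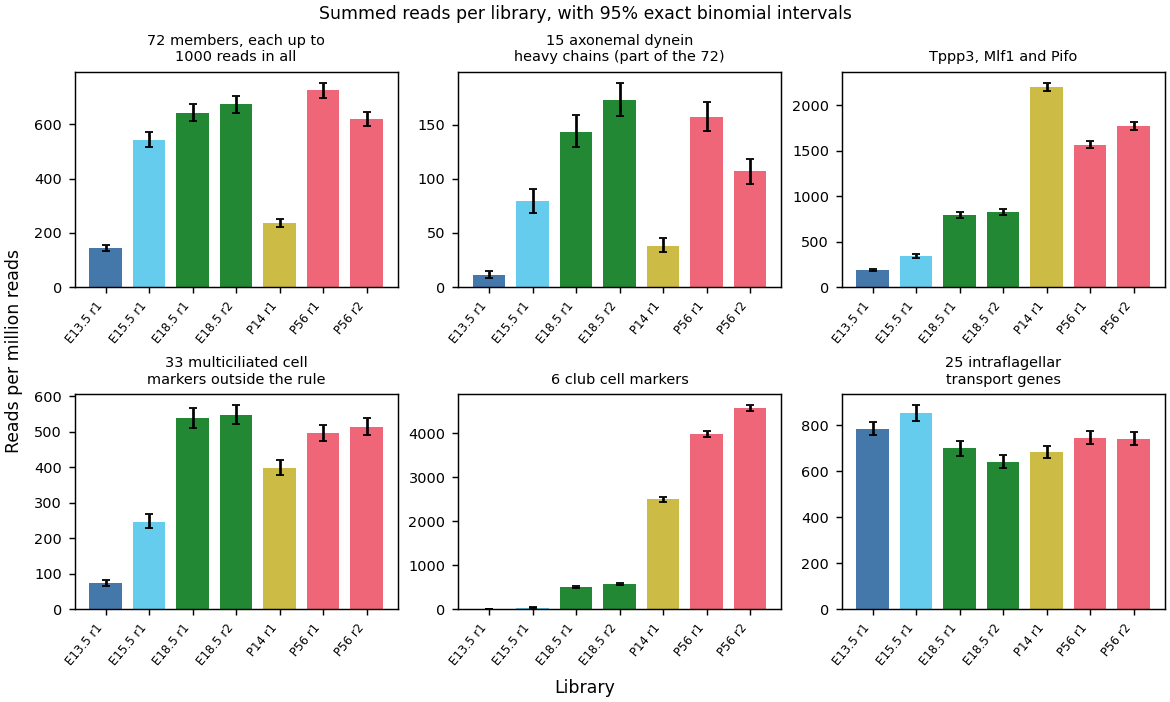
Summed reads, as RPM, in each of the 7 libraries (bars, r1 and r2 are replicates; whiskers are 95% exact binomial intervals) for members and related gene lists. The 72 members and the 15 dynein heavy chains are lowest at E13.5 and low at P14. Tppp3, Mlf1 and Pifo together are highest at P14, where 8412 of their 8415 reads are Tppp3, with 2 reads of Mlf1 and 1 of Pifo. Club cell markers, mostly Cbr2 from E18.5 on, are higher in each later stage. The 25 intraflagellar transport genes lie between 642 and 854 in all libraries.

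Foxj1 lies on chromosome 11 (116330704 to 116335399, minus strand, GENCODE on GRCm38, protein coding). Its value was 0.236 at E13.5, a single read, and 56.0 at E15.5. It was 55.1 and 67.4 in the E18.5 pair, 11 at P14, and 66.9 and 73.2 at P56. E15.5 thus lay inside the range of the E18.5 libraries, and P14 lay far below every stage but E13.5. The E15.5 value was 237 times the E13.5 value, with a counting interval of 41.9 to 9420 because of the single read. Foxj1 averaged 61.2 ± 8.76 (SD, n = 2) at E18.5 and 70.0 ± 4.47 (SD, n = 2) at P56.

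The other regulators shared this course only in part or not at all. Rfx3 and Ccno were, like Foxj1, lower at P14 than in both E18.5 and both P56 libraries, Ccno only just. Rfx3 was highest in the embryo, at 21.0 at E13.5 and 19.4 at E15.5. It was 12.7 and 14.3 in the E18.5 pair, 4.4 at P14, and 8.25 and 6.80 at P56, so both early libraries lay above all later ones. Rfx2 stayed between 1.54 and 6.48 in all 7 libraries, and its stages overlapped. Ccno was 3.31 at E13.5 and had its highest value, 18.3, at E15.5. It was 10.01 and 10.2 in the E18.5 pair, 9.08 at P14, and 14.8 and 9.72 at P56, so that its E15.5 value was 1.81 times the E18.5 level (counting interval 1.21 to 2.72). Rfx2, Rfx3 and Ccno passed the test in none of the 4 comparisons. The smallest limma adjusted p among them was 0.110, for Rfx3 at P14 against E18.5.

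**Figure D2:**
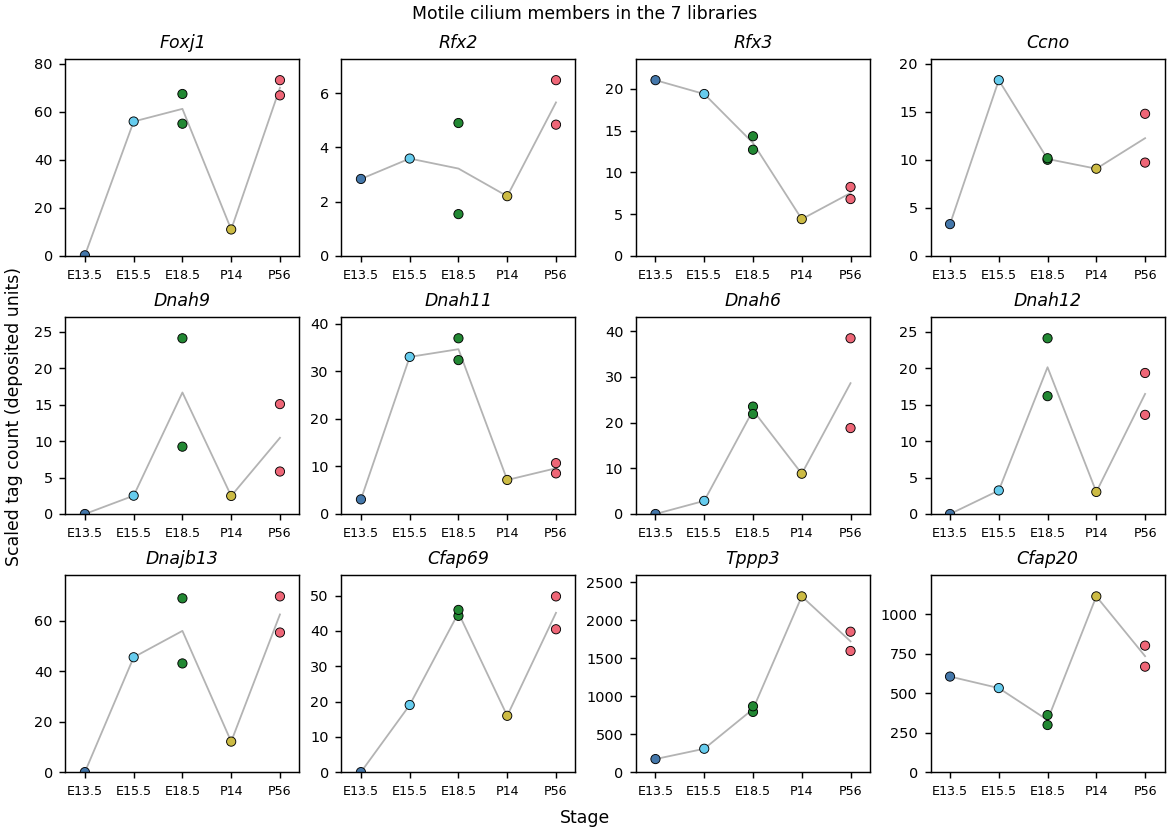
Scaled tag count in deposited units (y axis, from 0) at the 5 stages (x axis) for 12 members; each point is 1 library and the grey line joins the stage means. Foxj1 and Dnajb13 are already high at E15.5, Dnah9, Dnah6 and Dnah12 are high first at E18.5, and all of these are low in the single P14 library, where Tppp3 and Cfap20 are at their highest.

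The first comparison set E18.5 against the mean of E13.5 and E15.5, to see which members were turned up before birth. limma (log2 of value + 1, all 7 libraries in 1 fit, Benjamini-Hochberg adjusted over 12964 genes) tested 59 members. Of these, 28 were higher and 3 lower at E18.5, where 15.8% of all tested genes were called higher and 13.4% lower (29.1% either way). edgeR on the recovered reads called 33 higher and 3 lower, where 17.9% and 12.9% of all genes were called (30.8% either way). The median log2 change of the 59 was 1.39, against 0.03 for all genes. The other 17 members had too few reads to be tested. Since the filter kept members through the stages where they are high, the count is a description and does not speak for the 17.

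The outer dynein arms carry most of the force of the beat. Dnah11, a heavy chain of the outer arm (chromosome 12, 117877982 to 118199043, minus strand), was 3.07 at E13.5 and 33 at E15.5. It was 32.3 and 36.9 at E18.5, so the E15.5 library was already inside the E18.5 range. Dnah9, another outer arm heavy chain, was 0 at E13.5, 2.51 at E15.5, and 9.24 and 24.1 in the E18.5 pair. The E18.5 replicates lay far apart, but both were above the early libraries. Both rose at E18.5 against the early stages, Dnah11 by a log2 change of 1.60 (SE 0.305, limma adjusted p = 0.00828) and Dnah9 by 3.10 (SE 0.607, limma adjusted p = 0.00918). Armc4, a docking protein of the outer arm, was 0 at E13.5, 3.95 at E15.5, and 8.86 and 12.1 in the E18.5 pair. Dnaic2, an intermediate chain, was 0.709, 3.95, and then 5.78 and 9.04 in the same order. In all, 5 of the 6 tested outer arm members rose: Armc4, Dnah5, Dnah9, Dnah11 and Dnaic2.

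Inner dynein arms shape the bend of the cilium. Dnah6, an inner arm heavy chain (chromosome 6, 73017606 to 73221651, minus strand), was 0 at E13.5, 2.87 at E15.5, and 23.5 and 21.9 in the E18.5 pair. Dnah12 was 0, 3.23, and then 16.2 and 24.1. Dnah3 was 0, 4.31, and then 14.2 and 15.4. For these 3 genes both E18.5 libraries stood well above E15.5, in contrast to Foxj1 and Dnah11. Dnah6 rose by a log2 change of 3.59 (SE 0.414, limma adjusted p = 0.000997) and Dnah12 by 3.34 (SE 0.402, limma adjusted p = 0.00121). Against the E13.5 library, where Dnah6 and Dnah12 had no read, the E18.5 values were at least 32.0-fold and 28.5-fold higher, taking 3 reads as the limit of that library. The fitted log2 changes of such genes depend on the pseudocount of 1. Dnah7b was 5.91, 11.1, and then 20.02 and 34.7. Dnah3, Dnah6, Dnah7b and Dnah12 were the inner arm members that rose, 4 of 9 tested, and all 9 had a positive log2 change.

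Radial spokes link the doublets to the central pair, and the ruler proteins Ccdc39 and Ccdc40 set the repeat along the axoneme. Dnajb13, a J-domain protein of the radial spoke (chromosome 7, 100501716 to 100514960, minus strand), was 0 at E13.5 and 45.6 at E15.5. It was 43.1 and 68.9 at E18.5, so it followed Foxj1 in being high by E15.5. The E15.5 value was at least 64.3-fold higher than E13.5, and the rise at E18.5 against the early mean was 3.03 on the log2 scale (SE 0.319, limma adjusted p = 0.000708). Ccdc39, a ruler protein, was 1.89, 10.4, and then 21.9 and 16.6, and its partner Ccdc40 was 4.02, 12.2, and then 19.6 and 34.3. Both rulers rose. Of the 6 tested radial spoke members, Dnajb13 and Rsph14 rose, while Rsph9, a spoke head protein, was 2.84, 5.02, and then 3.85 and 10.2, with E18.5 overlapping E15.5.

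The central apparatus, the tektins and the Cfap genes were mixed. Spef2, a central apparatus protein, was 0, 3.95, and then 6.93 and 12.1, and Hydin was 0, 1.44, and then 6.54 and 3.39. These 2 rose, of 4 tested. Tekt1, a filament protein of the doublet, was 11.8 at E13.5 and 32.3 at E15.5, above the 27.7 and 21.1 at E18.5. Tekt2 had the same order, with 2.13, 14.4, and then 10.8 and 9.04, and neither passed the test. Tekt5 was the tektin that rose, with 0, 0.718, and then 4.24 and 5.65. Among the 13 tested Cfap genes 9 rose. Cfap69 (chromosome 5, 5579278 to 5664239, minus strand) was 0, 19, and then 44.3 and 46.0, a log2 change of 3.37 (SE 0.279, limma adjusted p = 0.000267). Cfap52, a protein inside the doublet microtubule, was 0.473, 21.2, and then 10.4 and 20.7. Its E15.5 value was above both E18.5 libraries, although it was called higher against the mean of the early stages (log2 change 1.46, limma adjusted p = 0.0457).

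Most of the 28 calls rest on the E13.5 library. Against E13.5 alone, limma called 32 members higher and 4 lower at E18.5, where 16.2% and 12.9% of all genes were called (edgeR 35 and 2, where 17.3% and 13.8% were called). Against E15.5 alone it called 6 higher, namely Tppp3, Cfap69, Dnah6, Dnah12, Cfap44 and Cfap46, and 2 lower, Dnaaf2 and Spag5, where 6.54% and 4.41% of all genes were called. edgeR called 6 higher and 1 lower, where 7.47% and 5.41% were called. The log2 change of Foxj1 was 5.65 against E13.5 (limma adjusted p = 4.1e-05) and 0.12 against E15.5 (limma adjusted p = 0.826). Dnah11 changed by 3.13 against E13.5 (limma adjusted p = 0.00127), and its difference from E15.5 was 0.06 (limma adjusted p = 0.931). Dnah6 still rose by 2.61 against E15.5 (limma adjusted p = 0.0159) and Dnah12 by 2.30 (limma adjusted p = 0.0209). Each early stage had 1 library, so a stage and its library cannot be told apart. When either E18.5 library was left out limma, with 1 residual degree of freedom, called no member. edgeR still called members there, but the share of all genes called in those fits is not given here.

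Expressed as a share of the E18.5 mean, the 34 members with 100 to 1000 reads were at a median of 9.69% at E13.5 and 55.0% at E15.5. For all 6679 genes of that read range with a value at E18.5, the medians were 94.5% and 95.6%. At E15.5, 8 of the 34 members were at or above the E18.5 mean, against 3159 of the 6679 genes. Another 5 members (14.7%) were under 25%, against 378 genes (5.66%). The roles differed in their medians at E15.5, each over few members. They were 29.0% for 5 inner arm members, 37.7% for 5 outer arm members and 46.1% for 8 Cfap genes. They were 80.7% for 4 radial spoke members and 139% for 2 tektins, Tekt1 and Tekt2. Single genes ranged from 7.25% for Cfap46 and 12.7% for Dnah6 to 95.3% for Dnah11, 132% for Tekt1 and 181% for Ccno. Dnaaf2, at 762%, stood outside this range. These shares describe 1 library at E15.5, and no test was made between roles.

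**Figure D3:**
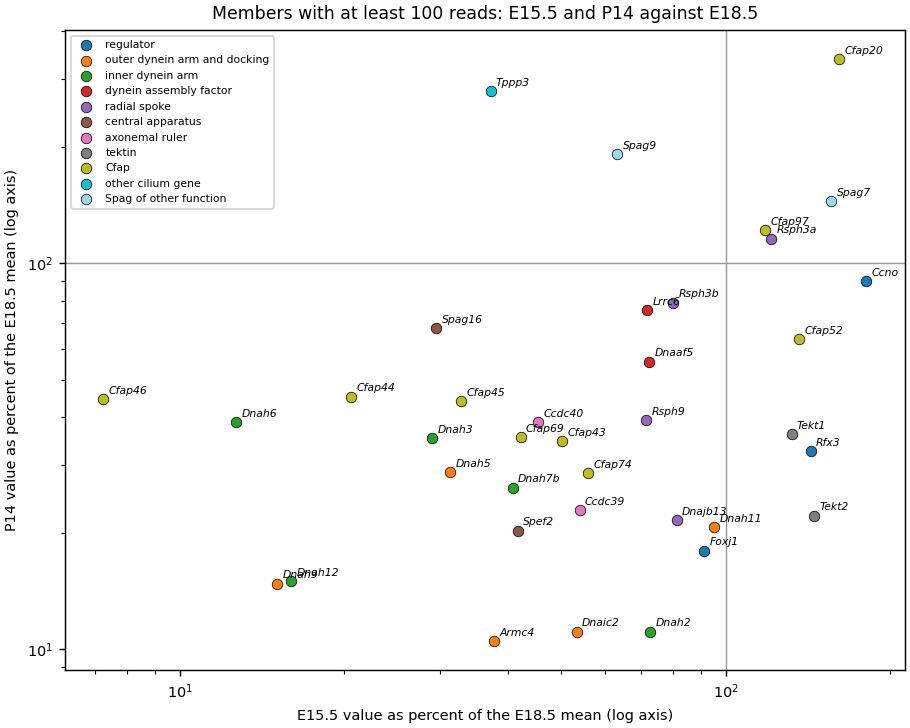
E15.5 value (x axis) and P14 value (y axis) of members with at least 100 reads, each as a percent of the E18.5 mean on log axes; colours give the role, grey lines mark 100%, and Dnaaf2 lies beyond the x axis and is left out. Dynein heavy chains such as Dnah6, Dnah9 and Dnah12 sit at the left, Foxj1, Dnajb13 and Dnah11 sit between 81.3% and 95.3% at E15.5 and between 18% and 21.6% at P14, and Tppp3 and Cfap20 sit above the other members.

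The P14 library was low for most members. Of the 34 members with 100 to 1000 reads, 28 (82.4%) were lower at P14 than in each of the 4 libraries of E18.5 and P56, against 1075 of 6726 genes in the same read range (16.0%). Over all 72 members with at most 1000 reads the count was 47, but the share of all genes was not computed for that range. The 6 others among the 34 were Cfap97, Dnaaf2, Dnaaf5, Rsph3a, Rsph3b and Spag16. The median member stood at 35.3% of its E18.5 mean at P14, and 25 of the 34 (73.5%) were under 50%, against 104% and 12% for all genes of that range. The role medians were 14.8% for 5 outer arm members, 26.2% for 5 inner arm members, 29.1% for 2 tektins and 30.8% for the 2 rulers. They were 44.2% for 8 Cfap genes, 59.1% for 4 radial spoke members and 75.6% for 3 assembly factors.

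In the test of P14 against E18.5, limma called 3 members lower and 2 higher, where 1.24% and 1.87% of all genes were called (3.11% either way). The log2 change was negative in 49 of the 59 tested members, with a median of -1.24 against 0.08 for all genes. Foxj1 fell by 2.37 on the log2 scale (SE 0.319, limma adjusted p = 0.0144), from 55.1 and 67.4 to 11. Dnajb13 fell by 2.08 (SE 0.391, limma adjusted p = 0.0393), from 43.1 and 68.9 to 12.1. Dnah11 fell by 2.12 (SE 0.374, limma adjusted p = 0.0322), from 32.3 and 36.9 to 7.15. In each of the 3 the P14 value lay below both E18.5 libraries. With a single P14 library the fit assumes that it varies like the other stages. Without robust variance estimates limma called 0 of the 5 (adjusted p = 0.0836 for Foxj1, 0.128 for Dnajb13 and 0.102 for Dnah11, with 28 members at an unadjusted p under 0.05), and it also called 0 when either E18.5 library was left out, where edgeR called 21 and 20.

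Further members were low at P14 without passing limma. Armc4 was 8.86 and 12.1 at E18.5 and 1.10 at P14 (limma adjusted p = 0.0580). Dnah12 was 16.2 and 24.1, and then 3.03 (limma adjusted p = 0.0530). Ccdc39 was 21.9 and 16.6, and then 4.4 (limma adjusted p = 0.0605), and Cfap69 was 44.3 and 46.0, and then 16.0 (limma adjusted p = 0.0771). In all of these P14 lay below both E18.5 libraries. edgeR's quasi-likelihood test on the recovered reads called 9 members lower, adding Armc4, Dnah12, Ccdc39, Cfap69, Cfap57 and Dnah7b to the 3 above, where 2.13% of all genes were called. It called 2 higher, where 3.16% were called, so that 11 changed in all (5.29% of all genes). Zmynd10, an assembly factor, had 0.550 at P14, only 2 reads, against 8.09 and 6.78 at E18.5, a ratio of 0.0741 with a counting interval of 0.00867 to 0.286.

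**Figure D4:**
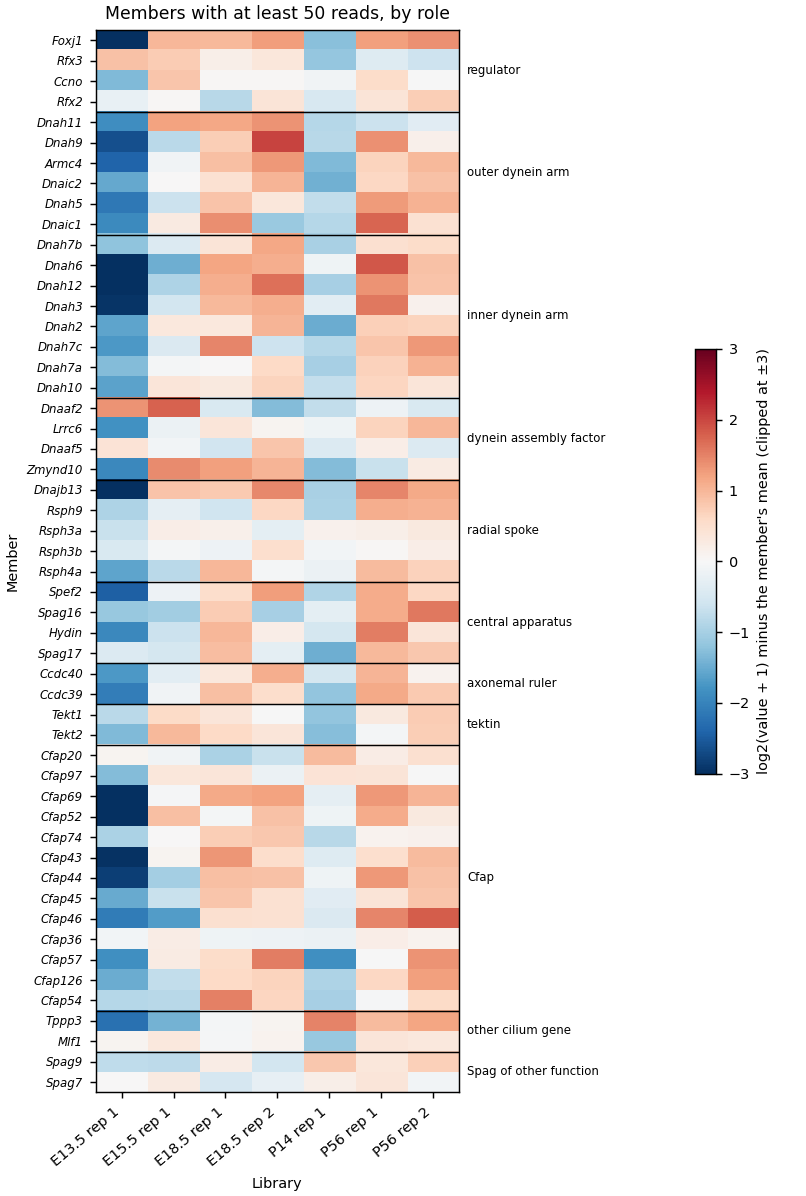
log2(value + 1) of members with at least 50 reads (rows, grouped by role) in the 7 libraries (columns), minus the mean of each member and clipped at 3 units either way; red is above and blue below the member's mean. The E13.5 and P14 columns are blue for most dynein arm, spoke, central apparatus and Cfap rows. Exceptions such as Rfx3, Dnaaf2, Tppp3 and Cfap20 stand out within their groups.

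At P56 the members were back near their E18.5 values in the median, but not each of them. Among the 34 members with 100 to 1000 reads, P56 ranged from 27.8% of the E18.5 mean for Dnah11 to 273% for Spag16. Cfap46 stood at 253% and Rsph9 at 203%. Spag16, Cfap46 and Rsph9 did not pass limma between E18.5 and P56. Against P14, limma called 1 member higher, Foxj1, and 0 lower, where 0.123% and 0.694% of all genes were called (0.818% either way), and 24 members had an unadjusted p under 0.05. edgeR called 3 higher and 0 lower, namely Foxj1, Dnajb13 and Ccdc39, where 0.571% and 1.49% of all genes were called (2.06% either way). Foxj1 rose from 11 to 66.9 and 73.2, a log2 change of 2.56 (SE 0.319, limma adjusted p = 0.0172). This call was lost in limma without robust variance estimates (adjusted p = 0.130) and when either P56 library was left out, and kept by edgeR in each fit without a P56 library (adjusted p = 0.00901 and 0.00575). Dnajb13 was 12.1 at P14 and 69.7 and 55.4 at P56, a log2 difference of 2.27 that missed the threshold (limma adjusted p = 0.0593). The log2 change was positive in 50 of the 59 tested members, with a median of 1.21 against 0 for all genes. The comparisons of P14 with E18.5 and with P56 share the single P14 library, so they are not independent of each other.

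Between E18.5 and P56, each with 2 libraries, 2 members were higher at P56, Tppp3 and Cfap20, and 2 were lower, Dnah11 and Tekt5, where limma called 8.07% and 6.15% of all genes (14.2% either way). edgeR also called 2 higher and 2 lower, where 8.28% and 7.89% of all genes were called (16.2% either way). The median log2 change of the 59 members was 0.19, against 0.06 for all genes, and the 34 members with 100 to 1000 reads were at a median of 99.9% of the E18.5 mean. Foxj1 differed by 0.20 on the log2 scale (SE 0.261, limma adjusted p = 0.676). Dnah11 was 8.54 and 10.7 at P56 against 32.3 and 36.9 at E18.5, a fall of 1.75 (SE 0.305, limma adjusted p = 0.0102). It stood at 27.8% of its E18.5 mean at P56, where Foxj1 stood at 114% and Dnajb13 at 112%. Tekt5 had 4.24 and 5.65 at E18.5 and 0 reads in both P56 libraries, and E18.5 was at least 10.9-fold higher, taking 3 reads over the P56 pair as the limit. Its fitted log2 change was -2.56 (SE 0.508, limma adjusted p = 0.0170). When any 1 of the 4 libraries was left out limma called no member here. edgeR still called members, but the share of all genes called in those fits is not given here. The P56 pair differed in some dyneins: Dnah9 was 15.1 and 5.83, Dnah6 was 38.4 and 18.8, and Dnah3 was 22.2 and 7.45.

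**Figure D5:**
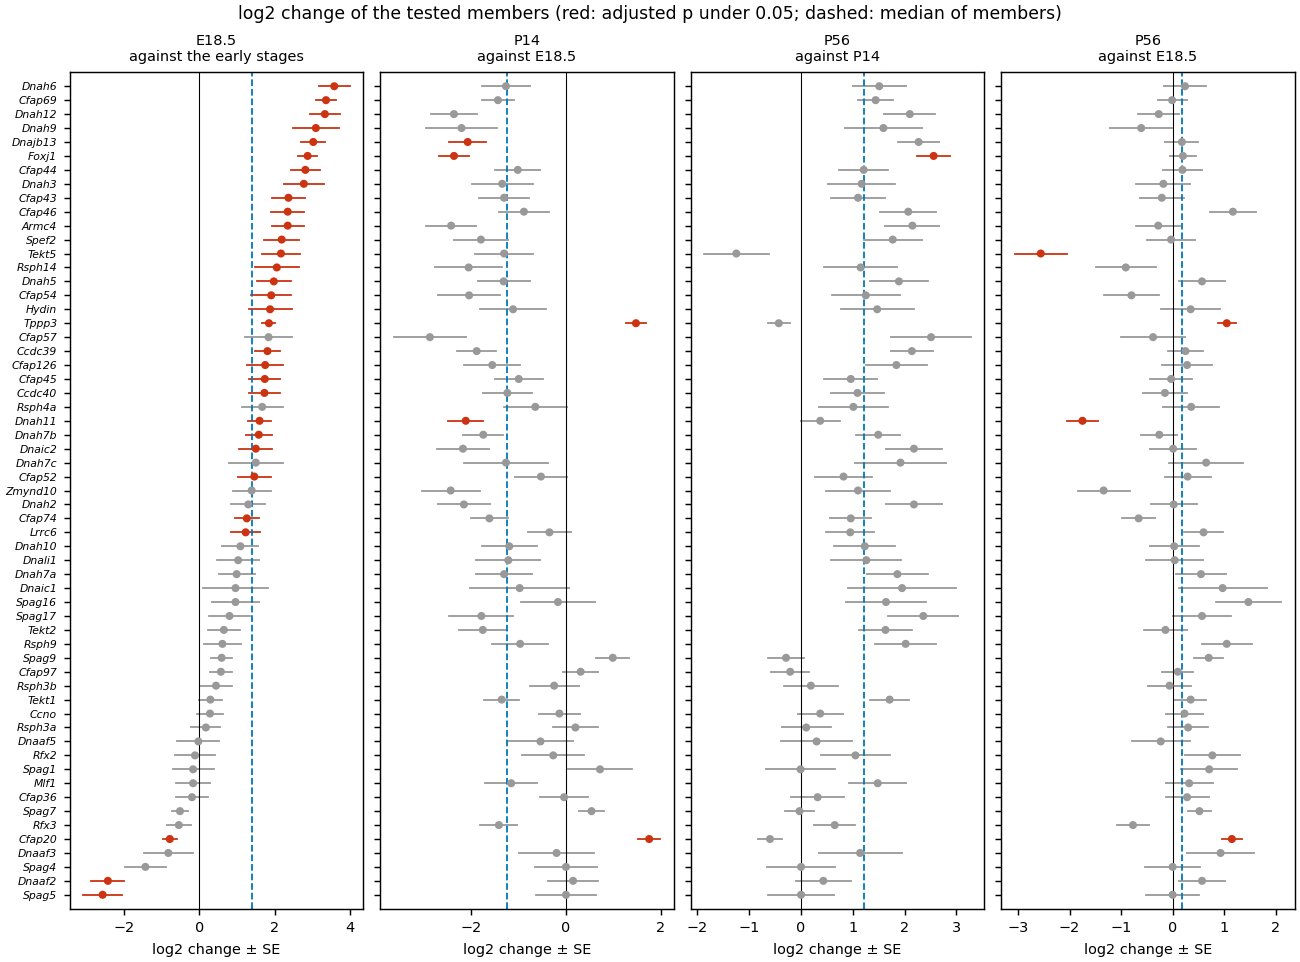
log2 change ± SE (x axes) of the 59 tested members (rows) in the 4 comparisons, from limma; red points have an adjusted p under 0.05 and the dashed line is the median of the members. The medians are 1.39 for E18.5 against the early stages, -1.24 for P14 against E18.5, 1.21 for P56 against P14 and 0.19 for P56 against E18.5.

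A few members ran against the rest. Tppp3, a tubulin polymerization promoting protein used as a ciliated cell marker (chromosome 8, 105467493 to 105471526, minus strand), was 172 at E13.5, 308 at E15.5, and 793 and 867 in the E18.5 pair. It was 2314 at P14, the highest of the 7 libraries, and 1595 and 1849 at P56. Tppp3 rose at E18.5 against the early stages (log2 change 1.85, SE 0.174, limma adjusted p = 0.000445) and rose again at P14 against E18.5 (1.48, SE 0.213, limma adjusted p = 0.0189). At P14, where Foxj1 was at 18% of its E18.5 mean, Tppp3 was at 279%. Cfap20, a microtubule-associated protein of cilia and basal bodies (chromosome 8, 95420249 to 95434869, minus strand), was 605 at E13.5, 532 at E15.5, 298 and 361 in the E18.5 pair, 1113 at P14, and 668 and 801 at P56. Cfap20 fell at E18.5 against the early stages by 0.79 on the log2 scale (SE 0.192, limma adjusted p = 0.0208) and rose at P14 against E18.5 by 1.76 (SE 0.235, limma adjusted p = 0.0142).

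Dnaaf2, a dynein assembly factor, was 17.3 at E13.5 and 23.3 at E15.5, above its 4.24 and 1.88 in the E18.5 pair, 3.30 at P14, and 5.41 and 4.21 at P56. Dnaaf2 fell at E18.5 by 2.44 (SE 0.438, limma adjusted p = 0.00654). Of the 6 tested assembly factors, 4 had a negative log2 change in this comparison, with a median of -0.10, and Dnaaf2 was the 1 that fell. Lrrc6 was 1.18 at E13.5, 5.74 at E15.5, 8.86 and 7.16 in the E18.5 pair, 6.05 at P14, and 11.1 and 14.3 at P56, and rose at E18.5 (log2 change 1.23, limma adjusted p = 0.0466). Zmynd10 was 0 at E13.5 and highest at E15.5, at 9.33. It was 8.09 and 6.78 at E18.5 and 1.42 and 3.56 at P56. Spag5, which the rule takes in by its name, encodes a protein of the mitotic spindle. Spag5 had 21 and 14 reads in the E13.5 and E15.5 libraries and 0 in the 5 later ones, and was at least 8.73-fold lower at E18.5 than in the early pair, with 3 reads over the E18.5 pair as the limit. Spag7 and Spag9 also entered by name. Spag7 was 217 to 401 and Spag9 208 to 631 over the 7 libraries, and neither passed the test in any of the 4 comparisons (smallest limma adjusted p 0.119 for Spag7 and 0.150 for Spag9).

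Genes outside the rule gave a frame for these values. Of the 33 multiciliated cell markers outside the rule, 19 were tested, and 7 rose and 1 (Mns1) fell at E18.5 against the early stages, with a median log2 change of 1.44, where 15.8% and 13.4% of all genes were called and their median was 0.03. Morn5, one of them, was 0 at E13.5, 49.5 at E15.5, 35.0 and 52.4 in the E18.5 pair, 7.98 at P14, and 15.9 and 24.6 at P56. Morn5 was the 1 marker called at P14 against E18.5, with a log2 change of -2.29 (limma adjusted p = 0.0402), where 1.24% of all genes were called lower. Sec14l3 was 3.31 at E13.5, 29.8 at E15.5, 326 and 336 in the E18.5 pair, 305 at P14, and 202 and 186 at P56. Sec14l3 thus lay at P14 between its E18.5 and P56 values. The 33 markers summed to 538 and 548 RPM in the E18.5 pair, 398 at P14, and 496 and 514 at P56. Without Sec14l3, a set made after its values were seen, the sums were 215 and 230, then 108, and then 298 and 336, so the P14 sum was lower in both versions and the gap was wider without this gene.

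Genes that primary cilia also use, and genes of multiciliation and centriole amplification, are given for comparison, with no test of the difference from the members. At E18.5 against the early stages, 29.1% of all genes were called, with a median log2 change of 0.03. Of the 24 tested genes of intraflagellar transport, the traffic system of all cilia, limma called 1 at E18.5 against the early stages, Ift20, which rose (adjusted p = 0.0357), and the median log2 change was -0.21. Ift43 lay between 241 and 316 and Ift46 between 83.5 and 140 in all libraries. Of the 20 tested genes of the primary cilium and its transition zone, Tmem231 fell at E18.5, and the median log2 change was -0.65. Of the 9 tested genes of multiciliation and centriole amplification, Ccdc78 rose and Plk4, a centriole kinase, fell by 3.44 (SE 0.373, limma adjusted p = 0.000781). Plk4 was 54.6 and 44.1 in the early libraries and at most 4.13 later. Cdc20b, a multiciliation gene, had 54 reads at E15.5, a single read at E13.5, 11 and 0 reads in the E18.5 pair and 0 in the 3 later libraries, so its reads were concentrated in the E15.5 library.

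Other airway and alveolar markers moved with the stages too. The 6 club cell markers summed to 6.42 and 35.9 RPM in the early libraries, 512 and 571 in the E18.5 pair, 2498 at P14, and 3981 and 4576 at P56. Most of these reads from E18.5 on were Cbr2, which had 8940 of the 9538 reads at P14. Scgb1a1, the club cell secretoglobin, was 15.02 and 14.7 in the E18.5 pair, 91.6 at P14, and 344 and 273 at P56, and so was not low at P14. Cbr2, Cyp2f2 and Scgb3a1 were also above both E18.5 libraries at P14. Aldh1a1 was not: it was 2.70 and 1.88 in the E18.5 pair, 1.38 at P14, and 9.39 and 8.42 at P56. Chad had 2 reads in all. The 5 markers of alveolar type 2 cells summed to 8828 and 7923 in the E18.5 pair, 30186 at P14, and 41016 and 44776 at P56. Of these 5, limma called 4 higher at P14 against E18.5, so a larger part of the P14 reads came from such genes. The part of these shifts in the member values was not tested.

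Across the 7 libraries, the gene whose log2(value + 1) followed Foxj1 most closely was Dnajb13, with a Pearson r of 0.995 among 9485 genes with at least 100 reads, a description over libraries that share their depth and stage. Of the 37 members ranked, 8 (21.6%) had an r of at least 0.9, against 96 genes (1.01%) in all, and 5 members had an r below 0. Outside the rule, the 10 genes closest to Foxj1 began with Hspa1b (0.987), Hspa1a (0.985) and Dyx1c1 (0.977), a dynein assembly factor also known as Dnaaf4. Dyx1c1 had 4, 24, 28, 29, 23, 48 and 45 reads in the order of stages. Hspa1a and Hspa1b are near-identical inducible heat shock genes, so their reads may be split between them. Hspa1a had 1390 reads at E13.5 and 10460 at E15.5, 11897 and 20121 in the E18.5 pair, 6464 at P14, and 18565 and 15238 at P56. Hspa1a rose at E18.5 against the early stages by a log2 change of 2.41 (SE 0.245, limma adjusted p = 0.000609) and fell at P14 by 1.73 (SE 0.300, limma adjusted p = 0.0318). Heat shock genes respond to handling of tissue as well as to other stress, and their part in the member values was not tested. The other 7 were Macrod1, Hspa1l, 4930548J01Rik, 4932418E24Rik, B4galt1, Gm13111 and Gpn3.

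Some values carry a limit from the gene models. Another gene overlaps the last 1000 bases of 20 members, and in 13 cases that gene is in the files, on the opposite strand in the cases named here. The sources used here do not say whether strand was used in counting, so reads of such pairs cannot be told apart. At Dnah11 the partner is Cdca7l, which had 850 reads at E13.5 and 391 at E15.5, and 0 and 22 in the E18.5 pair, where Dnah11 itself was high. At Dnajb13 the partner is Ucp2, with 56 reads at E13.5 and 119 at E15.5. Its later reads were 96 and 156 in the E18.5 pair, 299 at P14, and 206 and 200 at P56. In deposited units Ucp2 was 42.7 at E15.5, 37.0 and 58.8 in the E18.5 pair, and 58.6 and 64.8 at P56. Dnajb13 was of similar size in these libraries, at 45.6, then 43.1 and 68.9, and then 69.7 and 55.4. The genes differed more at E13.5 (Ucp2 13.2, Dnajb13 0) and at P14 (Ucp2 82.3, Dnajb13 12.1). Whether they shared reads was not tested. The near copies Dnah7a, Dnah7b and Dnah7c, Rsph3a and Rsph3b, and Spag6 and Spag6l may share reads.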

How the data were processed

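The deposited files give 1 value per gene symbol and library. The values are a signal, a 3' tag count that the authors divided by 1 factor per library; this was read from the values, since every column returned whole reads (100% of values within 0.01 reads). The submitters' processing notes name Bowtie2 2.2.5 and R 3.4.0 with the build mm10; the counting program, annotation and scaling are not given in the sources used here. Libraries held 2559927 to 3895740 reads. Members and lists were chosen with earlier results of these data known. Of 21121 genes, 12964 passed edgeR's filterByExpr by stage. limma 3.58.1 (trend, robust, R 4.3.3) fitted log2(value + 1) with a coefficient per stage over all 7 libraries, leaving 2 residual degrees of freedom. Calls used an adjusted p (Benjamini-Hochberg) below 0.05. A log2 change on this scale understates low genes. edgeR 4.0.16 and DESeq2 1.42.0 on the recovered reads, other pseudocounts, no filter, fits without 1 library and a block for the replicate number were alternatives. The script was tested on simulated data. The text names Foxj1, Rfx2, Rfx3 and Ccno. It names many, but not all, of the 4 members of each role with most reads and of the called members. Other names were chosen after their values were seen. Intervals are exact Clopper-Pearson or exact conditional intervals at 95% and cover counting error only. Promoter motifs came from RefSeq windows and positions from GENCODE, both on GRCm38.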

Additional observations from a re-analysis of the deposited data

How the results depend on the processing

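The depth limits the members more than most genes: 38 of the 76 had under 100 reads in all. Over called members and the others whose change is printed, the alternatives kept direction and side of the threshold 385 times for E18.5 against the early stages, 101 for P14 against E18.5, 82 for P56 against E18.5 and 32 for P56 against P14. In the same order, a member lost the threshold 181, 24, 22 and 4 times, gained it 6, 15, 0 and 6 times, and turned direction 4, 0, 3 and 0 times. Cfap52 reversed to -0.49 (limma) and -0.42 (edgeR) and Zmynd10 to -0.30 in both tools at E18.5 against the early stages when E13.5 was left out. At P56 against E18.5, Foxj1 reversed to -0.01 (edgeR, without E18.5 replicate 1) and Dnah6 to -0.26 (limma) and -0.35 (edgeR) without P56 replicate 1. The counts of called members were 31 for E18.5 against the early stages, 5 for P14 against E18.5, 1 for P56 against P14 and 4 for P56 against E18.5. With no filter on low values they were 15, 3, 3 and 2. edgeR gave 11 for P14 against E18.5 and 3 for P56 against P14, and DESeq2 gave 20 for E18.5 against the early stages and 2 for P56 against P14. Without robust variances 0 members were called at P14 against E18.5 and 0 at P56 against P14. Leaving out 1 library at a time gave 0 to 37 for E18.5 against the early stages, 0 to 21 for P14 against E18.5, 0 to 2 for P56 against P14 and 0 to 7 for P56 against E18.5; without E13.5 the first count was 8 (limma) or 7 (edgeR). limma called 0 in every fit that left out an E18.5 or P56 library for the comparisons of that stage, with 1 residual degree of freedom. Replicate numbers of E18.5 and P56 did not pair the libraries (correlation of their deviations -0.037 over 6807 genes). With the replicate block, limma called 17, 0, 0 and 3 members, and edgeR called 3 at P56 against P14. Apart from the main limma and edgeR fits, these counts stand without the share of all genes called. They compare settings and are no result about the members. The causes of these shifts were not tested.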
